A study of Rattus norvegicus with 9 samples.

Results

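Opioid receptors and the precursors of their peptides are described here by 6 genes out of 20194 in the deposited gene table, each taken by its symbol. Oprm1, Oprd1 and Oprk1 encode the mu, delta and kappa opioid receptors, Oprl1 encodes the nociceptin receptor, Penk encodes proenkephalin, and Pdyn encodes prodynorphin. All 6 genes were found once in the table. RNA-seq was done on ipsilateral lumbar dorsal root ganglia (DRG) of adult male Sprague Dawley rats, with 3 libraries in each of 3 groups. Sham rats had the operation without the nerve injury, SNI rats had spared nerve injury, in which the tibial and common peroneal branches of the sciatic nerve are cut and the sural branch is left intact, and SNI + G15 rats had the same injury and were given G15, a blocker of the G protein-coupled oestrogen receptor GPER, into the intrathecal space. Per the labels the drug was dissolved in DMSO and given over 24 h through a catheter placed on day 5 after SNI. The labels of all 9 libraries carry these same items, and both other groups are marked as controls for G15. The sources used here do not state whether the sham and SNI rats themselves had a catheter and vehicle. G15 therefore cannot be told apart from its delivery. A whole ganglion holds injured and uninjured neurons of several types, satellite glia, Schwann cells, immune cells, fibroblasts and blood, and fewer cells of a type cannot be told apart from less RNA per cell in such samples.

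Opioid receptors are G protein-coupled receptors of the Gi/o class. On sensory neurons they lower adenylyl cyclase activity, close voltage-gated calcium channels at the central terminal and open inward-rectifier potassium channels, which is how opioids reduce transmitter release from nociceptors. Enkephalins cut from proenkephalin act mainly at delta and mu receptors, dynorphins cut from prodynorphin act mainly at kappa receptors, and nociceptin, from the precursor Pnoc, acts at Oprl1.

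The libraries held between 18484557 and 18756736 estimated counts each. Neuronal markers were abundant in all of them, with 7 pan-neuronal genes summing to between 7598 and 8998 FPKM (fragments per kilobase of transcript, scaled to library depth), whereas 6 markers of spinal cord cells summed to between 3.73 and 8.45 FPKM. All 6 injury markers were higher than in sham both in SNI and in SNI + G15, among them the transcription factor Atf3, at 3.95 FPKM in sham, 141 FPKM in SNI and 136 FPKM in SNI + G15. The third SNI + G15 library stood apart from its group: its counts differed from those of the first and second library with a chi-square of 8.13 and 7.89 per gene, against 3.01 between those 2 libraries and 2.50 to 4.44 within the other groups. Values of the opioid genes in SNI + G15 are given with and without it.

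Of the 6 genes, Pdyn and Oprd1 had the lowest levels in sham ganglia. Pdyn had the widest change of the 6 after injury. Oprd1, on 10 to 24 estimated counts per sham or SNI library, did not pass the test, which leaves its change unknown. The 250 bases before their annotated start sites are printed, a choice made on these results. They are RefSeq sequences of the GRCr8 rat assembly, written 5′ to 3′ along the gene, and both genes lie on the minus strand. RefSeq windows for 3 of the 6 genes were matched, and Oprm1 was the other one. The capitals mark matches, on either strand, to the TATA box letters TATAAA or the GC box letters GGGCGG.
Pdyn, chr3:137366504-137366753: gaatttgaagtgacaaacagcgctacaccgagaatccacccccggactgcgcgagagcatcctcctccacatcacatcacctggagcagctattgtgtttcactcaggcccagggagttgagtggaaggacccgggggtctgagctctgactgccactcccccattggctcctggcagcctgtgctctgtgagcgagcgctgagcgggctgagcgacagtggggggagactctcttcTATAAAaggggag
Oprd1, chr5:149625000-149625249: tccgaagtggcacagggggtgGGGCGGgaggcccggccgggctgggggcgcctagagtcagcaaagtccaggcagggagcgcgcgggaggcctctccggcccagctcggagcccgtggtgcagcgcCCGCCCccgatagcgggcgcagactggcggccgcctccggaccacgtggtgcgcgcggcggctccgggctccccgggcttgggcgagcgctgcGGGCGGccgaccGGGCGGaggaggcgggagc
The Pdyn window had TATAAA on the gene's strand, with its first base at position -13 from the start site, a sequence found on either strand in 12.9% of 33469 such windows. The Oprd1 window had 79.6% G and C, above 98.8% of all windows, and it had 4 matches to GGGCGG, which 30.5% of windows hold at least once. Neither window had the AP-1 letters TGACTCA, present in 4.05% of windows, or the cyclic AMP response letters TGACGTCA, present in 1.59%. Oprm1, which also did not pass the test after injury, had none of these letter sets in its windows. These are letter matches in short windows and say nothing of whether a factor binds there.

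In sham ganglia the nociceptin receptor Oprl1 was the most abundant of the 6, at 11.4 ± 0.58 FPKM (SD, n = 3). Its mean was above that of 68.8% of all genes in the table. Penk followed at 8.90 ± 0.91 FPKM. The ranges of Oprk1, at 2.25 ± 0.25 FPKM, and Oprm1, at 2.00 ± 0.17 FPKM, overlapped, so their order is not set by these libraries. Oprd1, at 0.77 ± 0.15 FPKM, and Pdyn, at 0.18 ± 0.051 FPKM, came last, with no overlap between them. In SNI ganglia Pdyn moved above Oprd1 without overlap, and in SNI + G15 ganglia the ranges of Pdyn, Oprk1 and Oprm1 ran into each other.

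**Figure D1:**
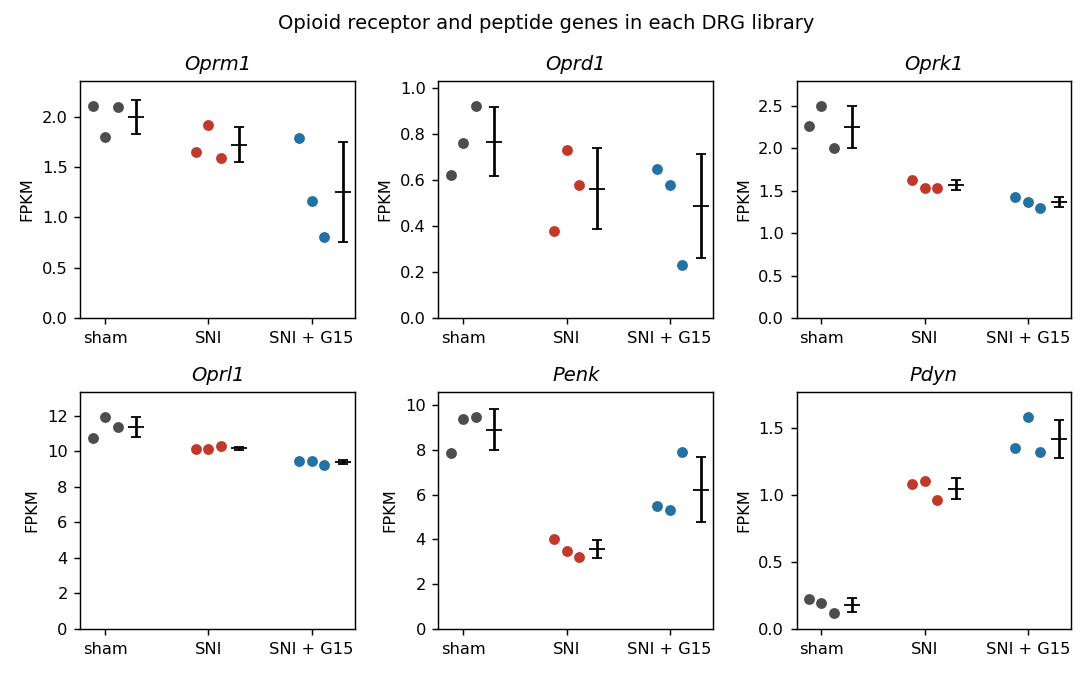
FPKM (y axis, from 0) of each of the 6 opioid genes in the 3 libraries of sham, SNI and SNI + G15 ganglia (points), with the group mean and SD beside them (bar). Penk was low in SNI and intermediate in SNI + G15, Pdyn was low in sham alone, and Oprk1 and Oprl1 were highest in sham.

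The first comparison, SNI against sham, asks how nerve injury changed the opioid genes of the ganglion. Penk fell 2.55-fold, Oprk1 fell 1.47-fold and Pdyn rose 5.67-fold, whereas Oprm1 and Oprd1 did not pass the test. With edgeR's quasi-likelihood test and Benjamini-Hochberg adjustment over 14305 genes, 4 of the 6 genes were called at an adjusted p below 0.05, 1 higher and 3 lower, and 45.7% of all tested genes were called in this comparison, 23.3% higher and 22.4% lower. A share of genes that large means that being called does not set the opioid genes apart from other genes. Oprd1 did not reach the minimum of 1 FPKM in any library and was taken from the fit over all 20107 genes with a count, in which 33.4% were called.

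Penk, the source of met- and leu-enkephalin, was at 7.85, 9.39 and 9.47 FPKM in the sham libraries and at 4.03, 3.48 and 3.21 FPKM in the SNI libraries. Every SNI library was below every sham library, a separation that 53.9% of tested genes showed in one direction or the other. This was a log2 fold change of -1.35 (SE 0.12, 95% interval -1.61 to -1.09, adjusted p = 6.3e-06). The values rest on 188 to 229 estimated counts per sham library and 77 to 97 per SNI library.

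Pdyn, the dynorphin precursor, was at 0.22, 0.19 and 0.12 FPKM in sham and at 1.08, 1.10 and 0.96 FPKM in SNI. The sham values stand for only 10, 8 and 5 estimated counts, against 46, 48 and 41 in SNI. All SNI libraries were therefore above all sham libraries, although the sham level itself is known only roughly. Injury thus gave a log2 fold change of 2.50 (SE 0.30, 95% interval 1.85 to 3.16, adjusted p = 5.79e-05). Pdyn passed the FPKM minimum only through the injured groups, and in the fit over all genes with a count its log2 fold change was 2.50 with an adjusted p of 2.82e-05.

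Oprk1, the receptor for dynorphin, was at 2.26, 2.49 and 2.00 FPKM in sham and at 1.63, 1.53 and 1.53 FPKM in SNI. The groups did not overlap. The log2 fold change was -0.55 (SE 0.098, 95% interval -0.77 to -0.34, adjusted p = 0.00097). In the same libraries in which the mRNA of the peptide precursor rose, that of its receptor was thus lower.

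Oprl1, the nociceptin receptor, was at 10.8, 11.9 and 11.4 FPKM in sham and at 10.1, 10.1 and 10.3 FPKM in SNI. It fell by 9.43% with an adjusted p of 0.0452 (log2 fold change -0.14, SE 0.052), and this call was lost in 9 of 15 alternative settings, DESeq2 among them (adjusted p = 0.153, from a range of 0.0189 to 0.153 over the 15). Its precursor gene Pnoc was at 1.25 ± 0.28 FPKM in sham and 1.44 ± 0.39 FPKM in SNI (n = 3 each), and Pomc, the precursor of beta-endorphin, was at 1.36 ± 0.20 and 1.55 ± 0.40 FPKM. Neither precursor passed the test in any of the 3 comparisons, with edgeR adjusted p between 0.267 and 0.998.

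Oprm1, the receptor through which morphine acts, was at 2.10, 1.80 and 2.09 FPKM in sham and at 1.65, 1.92 and 1.59 FPKM in SNI. The groups overlapped. The log2 fold change was -0.23 (SE 0.14, edgeR adjusted p = 0.226), and its 95% interval ran from -0.54 to 0.09, so a fall of the size seen for Oprk1 is at the edge of what these libraries allow. Oprd1, the delta receptor, was at 0.62, 0.76 and 0.92 FPKM in sham and at 0.38, 0.73 and 0.58 FPKM in SNI, on 10 to 24 estimated counts per library. Its log2 fold change was -0.48 (SE 0.31, 95% interval -1.17 to 0.20, edgeR adjusted p = 0.279), an interval wide enough to hold either no change or a larger fall than that of Oprk1.

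Other genes moved with these values. The 7 pan-neuronal markers summed to 7598 to 7894 FPKM in sham and 8352 to 8577 FPKM in SNI, with 2 of them higher and 3 lower. The largest part of the sum was Uchl1, at 3123 FPKM in sham and 3026 FPKM in SNI, which was not called. The cytoskeletal genes Tubb3 and Prph rose by 0.35 and 0.28 on the log2 scale. Rbfox3, the synaptic gene Snap25 and Syt1 fell by 0.56, 0.45 and 0.16. Markers of neuron types were lower on balance: those of large myelinated neurons summed to 2523 to 2621 FPKM in sham and 1640 to 1781 FPKM in SNI, with 4 of 5 lower, those of nonpeptidergic nociceptors to 352 to 360 and 320 to 323 FPKM, with 3 of 5 lower and 1 higher, and those of peptidergic nociceptors to 894 to 961 and 826 to 877 FPKM, with 2 of 3 lower. Per 1000 FPKM of the 7 pan-neuronal markers, Penk was at 1.03 to 1.20 FPKM in sham and 0.378 to 0.470 FPKM in SNI. On the same scale Oprk1 was at 0.254 to 0.315 FPKM in sham and 0.180 to 0.190 FPKM in SNI. The groups again did not overlap for either gene. The 5 Schwann cell markers summed to 5144 to 5256 FPKM in sham and 2843 to 2901 FPKM in SNI, with 4 of 5 lower, and the 6 macrophage markers rose from 82.6 to 90.4 FPKM to 185 to 204 FPKM, with 5 of 6 higher. The 4 erythroid markers, at 439 to 517 FPKM in sham and 1392 to 1434 FPKM in SNI, were all higher. The part of these cells in the Penk, Pdyn and Oprk1 values was not tested.

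**Figure D2:**
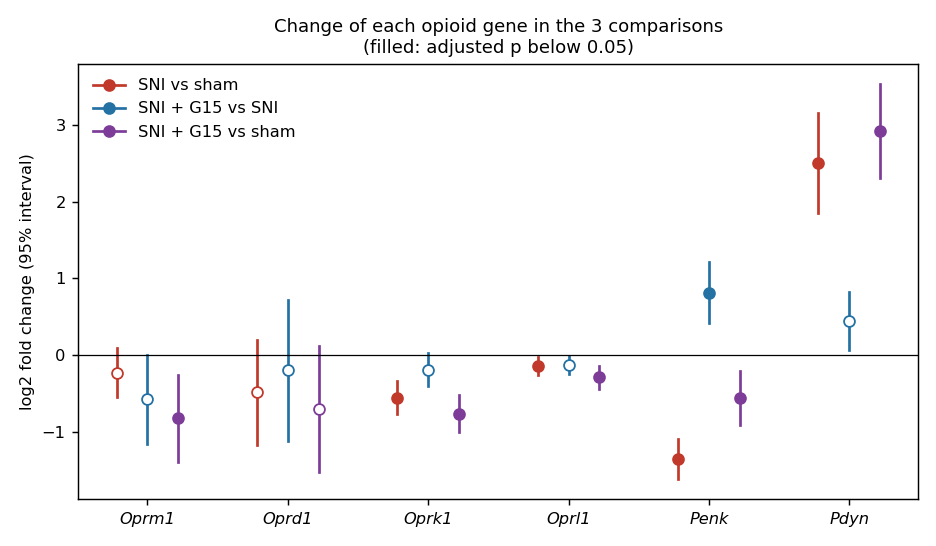
Log2 fold change (y axis) of each opioid gene in SNI against sham, SNI + G15 against SNI, and SNI + G15 against sham, with 95% intervals (lines) and filled points where the edgeR adjusted p was below 0.05. Pdyn stood at 2.50 and 2.92 against sham, and Penk was the only filled point between the injured groups, at 0.82.

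The second comparison, SNI + G15 against SNI, asks what blocking GPER changed in injured ganglia. Penk was 1.76-fold higher with G15, and it was the 1 of the 6 genes that passed the test, where 15.2% of all tested genes were called, 7.98% higher and 7.25% lower. Penk was at 5.49, 5.30 and 7.89 FPKM in SNI + G15, against 3.21 to 4.03 FPKM in SNI. All SNI + G15 libraries were above all SNI libraries, also per 1000 FPKM of pan-neuronal markers (0.605 to 0.877 FPKM), a separation in FPKM shown by 38.3% of tested genes. The log2 fold change was 0.82 (SE 0.18, 95% interval 0.42 to 1.22, edgeR adjusted p = 0.0175).

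The third SNI + G15 library had the highest Penk value of its group. Without it the log2 fold change was 0.60 with an edgeR adjusted p of 0.0168. The call was lost without the second SNI library (adjusted p = 0.0730) or without the third (adjusted p = 0.0764), which left the log2 fold change at 0.80 and 0.74. Over all 15 alternatives the adjusted p ran from 0.00187 to 0.0764.

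Markers of other cells differed between the same libraries. The 5 fibroblast markers summed to 382 to 384 FPKM in SNI and 516 to 539 FPKM in SNI + G15, and all 5 were higher, among them the matrix protein genes Lum, with a log2 fold change of 0.80, and Dcn, with 0.53. The same sum was 393 to 404 FPKM in sham. The Schwann cell markers summed to 3067 to 3188 FPKM in SNI + G15, against 2843 to 2901 FPKM in SNI, with 4 of 5 higher. The 4 erythroid markers were all lower, at 833 to 986 FPKM against 1392 to 1434 FPKM. The part of these cells in the Penk value was not tested.

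**Figure D3:**
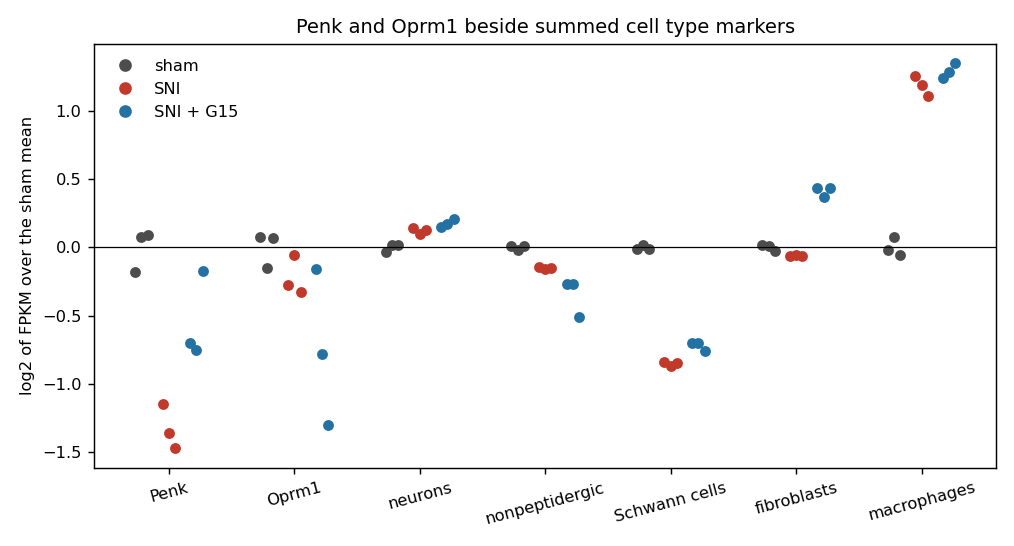
Log2 of the FPKM over the sham mean (y axis) in each library for Penk, Oprm1 and the summed markers of neurons in general, nonpeptidergic nociceptors, Schwann cells, fibroblasts and macrophages, with 3 points per group. The sum of the fibroblast markers was above the sham libraries in SNI + G15 alone, while Penk was lowest in SNI.

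Transcript length also went with the change between the injured groups. Over the tested genes, split into 4 classes of equal size by effective length, the median log2 fold change of SNI + G15 against SNI went from 0.14 in the shortest class to -0.097 in the longest. The trend was steepest in the third SNI + G15 library, whose medians relative to the SNI mean ran from 0.23 to -0.15, against 0.077 to -0.057 in the first and 0.11 to -0.082 in the second. Penk, with an effective length of 1.30 kb, was in the shortest class, Oprm1 and Pdyn, at 2.12 and 2.30 kb, were in the second, Oprl1, at 3.31 kb, was in the third, and Oprk1, at 4.78 kb, was in the longest. Oprd1, below the FPKM minimum, had an effective length of 1.40 kb, within the shortest class. Beside the median of 0.14 in that class, the log2 fold changes were 0.82 for Penk and -0.20 for Oprd1. In the second class, with a median of 0.043, they were -0.57 for Oprm1 and 0.44 for Pdyn. Oprl1 was at -0.12 beside -0.018 in the third class, and Oprk1 at -0.19 beside -0.097 in the longest. The part of the length trend in these values was not tested.

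Oprm1 was at 1.79, 1.16 and 0.81 FPKM in SNI + G15, on 67, 45 and 30 estimated counts. The first library lay within the SNI range of 1.59 to 1.92 FPKM, and the other two were below it. The log2 fold change against SNI was -0.57 (SE 0.26, 95% interval -1.15 to 0.01, edgeR adjusted p = 0.162). It was called only without the first SNI + G15 library, at -0.90 with an adjusted p of 0.0350, and it was -0.33 with an adjusted p of 0.321 without the third, these being the ends of the range of adjusted p over the 15 alternatives. The 5 genes taken as markers of nonpeptidergic nociceptors summed to 320 to 323 FPKM in SNI and 250 to 297 FPKM in SNI + G15, with the lowest sum in the third library. Of these, 3 of 5 were lower, among them the receptor gene Mrgprd with a log2 fold change of -0.42. Most of the SNI sum came from P2rx3, at 161 FPKM, and the sodium channel genes Scn10a and Scn11a, at 83.0 and 56.5 FPKM. Mrgprd was at 15.1 FPKM, so the sum follows those genes more than Mrgprd. The 3 markers of peptidergic nociceptors summed to 826 to 877 FPKM in SNI and 928 to 1019 FPKM in SNI + G15. Of these, 1 was higher and 0 were lower. The part of either neuron type in the Oprm1 value was not tested.

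Pdyn was at 1.35, 1.58 and 1.32 FPKM in SNI + G15, all above the SNI libraries. The difference did not pass the test (log2 fold change 0.44, SE 0.17, 95% interval 0.07 to 0.82, edgeR adjusted p = 0.105). Oprk1 was at 1.42, 1.37 and 1.30 FPKM and Oprl1 at 9.44, 9.46 and 9.25 FPKM, in both cases below every SNI library. Neither passed the test, with log2 fold changes of -0.19 (SE 0.092, edgeR adjusted p = 0.201) and -0.12 (SE 0.051, edgeR adjusted p = 0.140). Without the third SNI + G15 library the log2 fold changes were 0.49 for Pdyn, -0.15 for Oprk1 and -0.10 for Oprl1, with edgeR adjusted p of 0.132, 0.388 and 0.226.

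Oprd1 was at 0.65, 0.58 and 0.23 FPKM in SNI + G15, on 17, 15 and 6 estimated counts. These values overlapped the SNI range. The log2 fold change of -0.20 had a 95% interval of -1.11 to 0.72 (edgeR adjusted p = 0.81 in the fit over all genes with a count, of which 9.44% were called), and its sign turned to 0.14 without the third SNI + G15 library. No direction can be read for the delta receptor at this depth.

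The third comparison, SNI + G15 against sham, shares its groups with the other comparisons and gives how far the treated, injured ganglia lay from uninjured ones. Of the 6 genes 5 were called, 1 higher and 4 lower, where 43.2% of all tested genes were called, 21.4% higher and 21.9% lower. Oprd1, again from the fit over all genes with a count, of which 31.9% were called, was not, with a log2 fold change of -0.70 (SE 0.37, 95% interval -1.52 to 0.12, edgeR adjusted p = 0.189). Pdyn was 7.59-fold higher (log2 fold change 2.92, SE 0.27, edgeR adjusted p = 2.06e-05), with 57 to 67 estimated counts per SNI + G15 library against 5 to 10 in sham. Oprk1 was 1.69-fold lower (log2 fold change -0.76, SE 0.11, edgeR adjusted p = 0.0003). Oprl1 was 1.22-fold lower (log2 fold change -0.29, SE 0.065, edgeR adjusted p = 0.00535), and this call held in all 15 alternatives. Without the third SNI + G15 library these log2 fold changes were 2.98, -0.71 and -0.25, all still called, and that of Oprd1 was -0.36 (edgeR adjusted p = 0.436). For both receptors the groups did not overlap, as was the case for 52.9% of tested genes.

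Oprm1 was 1.77-fold lower in SNI + G15 than in sham (log2 fold change -0.82, SE 0.25, edgeR adjusted p = 0.0239). The highest SNI + G15 library, at 1.79 FPKM, was just under the lowest sham library, at 1.80 FPKM. Without the third SNI + G15 library the log2 fold change was -0.57 with an adjusted p of 0.05, just inside the threshold, and the call was lost without the first sham, the third sham or the second SNI + G15 library (adjusted p = 0.0734, 0.0739 and 0.0602, from a range of 0.00335 to 0.0739 over the 15 alternatives). Penk was 1.47-fold lower (log2 fold change -0.55, SE 0.16, edgeR adjusted p = 0.0164), although the third SNI + G15 library, at 7.89 FPKM, reached the lowest sham library, at 7.85 FPKM. Without that SNI + G15 library it was -0.76 with an adjusted p of 0.000559, and the call was lost without the second sham (0.0536), the third sham (0.0630), the first SNI + G15 (0.0546) or the second SNI + G15 library (0.0536).

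The 4 receptors together summed to 16.4 ± 0.61 FPKM in sham, 14.0 ± 0.25 FPKM in SNI and 12.5 ± 0.86 FPKM in SNI + G15 (SD, n = 3). Oprl1 made up 69.4 ± 0.93% of the sum in sham, 72.6 ± 1.59% in SNI and 75.3 ± 4.42% in SNI + G15, so most receptor mRNA in each library was that of the nociceptin receptor. The share of Oprm1 was 12.2 ± 1.44%, 12.3 ± 1.06% and 9.89 ± 3.29%. The spread of both shares was widest in SNI + G15, and without the third library of that group the sum was 12.9 FPKM, the share of Oprl1 73.1% and that of Oprm1 11.3% (n = 2).

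**Figure D4:**
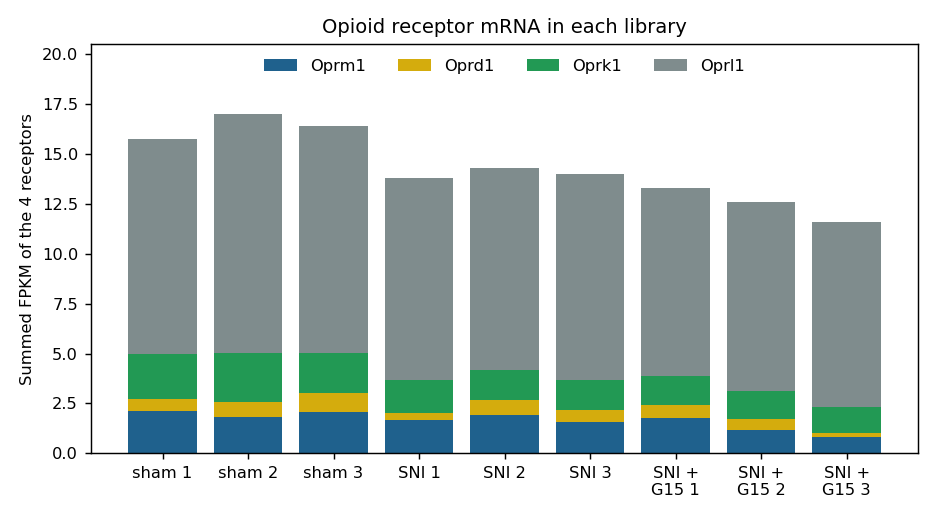
FPKM of the mu (Oprm1), delta (Oprd1), kappa (Oprk1) and nociceptin (Oprl1) receptor genes stacked for each of the 9 libraries (y axis, from 0). The sum was 16.4 FPKM on average in sham, 14.0 FPKM in SNI and 12.5 FPKM in SNI + G15, and Oprl1 was the largest part of every bar.

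The other genes through which opioid peptides are made, cut and sensed were followed in 8 lists with 90 genes, of which 85 were tested. In SNI against sham 24 were higher and 30 lower, 63.5% of those tested beside the 45.7% of all genes, with a median log2 fold change of -0.03 against 0.00 over all genes. In SNI + G15 against SNI 4 were higher and 13 lower, 20.0% beside 15.2%, with a median of -0.09 against 0.01. The median over all tested genes of the longest class was -0.097 in this comparison. The part of the length trend in the list values was not tested. Without the third SNI + G15 library, a setting chosen after seeing the data, 16 of these 17 kept their call and direction. Their calls with the replicate block or without an SNI library are not given here. Over all genes, the number called fell from 2179 to 1292 with that block. It was 1098, 925 and 893 without SNI replicates 1, 2 and 3, so the stability of these 17 calls is known for 1 setting only. Sstr2, a somatostatin receptor gene, lost its call (log2 fold change -0.94, edgeR adjusted p = 0.0519). In that setting 21 of the 85 were called, 5 higher and 16 lower.

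Among 8 genes that process neuropeptide precursors, 1 was higher and 3 were lower after injury. Pcsk1, a convertase that makes the first cuts in proenkephalin and prodynorphin, rose with a log2 fold change of 0.56 (SE 0.046, edgeR adjusted p = 3.69e-06). Pcsk2, a second convertase of dense-core vesicles, fell by 0.33, and Scg5, which encodes the chaperone of that enzyme, fell by 0.35 on the log2 scale. With G15 Pcsk2 fell further, by 0.39 (edgeR adjusted p = 0.00099), and the convertase gene Furin rose by 0.21. Pcsk2 thus went from 36.0 FPKM in sham to 29.3 FPKM in SNI and 22.1 FPKM in SNI + G15.

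Among 8 genes for peptidases that cut opioid peptides, 4 were higher and 2 lower after injury. Anpep, aminopeptidase N, rose with a log2 fold change of 0.48, and Dpp3, a dipeptidyl peptidase that cuts enkephalin, rose by 0.20. Mme, neprilysin, fell by 0.30 on the log2 scale in edgeR (adjusted p = 0.0174) but was not called by DESeq2, and Ece2 fell by 0.32. With G15 Anpep rose by 0.55, Ace rose by 0.47 and Mme fell by 0.61, all in edgeR's test with adjusted p of 0.00124, 0.0106 and 0.0105.

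Of 12 genes for inhibitory G protein subunits, 3 were higher and 4 lower in SNI. The alpha subunit gene Gnai3 rose by 0.31 and Gng2 by 0.26, while Gnao1, the main alpha subunit of neurons, fell by 0.22 and Gnai1 by 0.24 on the log2 scale. With G15, 1 was higher and 3 were lower, with Gng3 at 0.27, Gnb4 at -0.57 and Gnai1 at -0.24. Gnai1 was thus lower in each step, from 36.6 to 31.7 to 26.6 FPKM.

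Of 12 effector genes, 3 were higher and 3 lower after injury. Cacna2d1, the calcium channel subunit to which gabapentin binds, rose from 19.4 to 69.8 FPKM (log2 fold change 1.82, SE 0.041, edgeR adjusted p = 2.45e-10). Cacna1b, the N-type calcium channel that opioids close, rose by 0.24, while Kcnj3, a subunit of the potassium channel that they open, fell by 0.45 and the cyclase gene Adcy5 by 0.30. With G15, edgeR called 0 of the 12, with 5 at an unadjusted p below 0.05, and DESeq2 called 1.

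Receptor kinases, arrestins and RGS proteins end or dampen receptor signalling, and 3 of the 11 tested were higher and 6 lower in SNI. The arrestin gene Arrb1 rose by 0.75 and the kinase gene Grk6 by 0.50, while Rgs4 fell by 0.29 and Rgs7 by 0.18 on the log2 scale. With G15, edgeR called 0 of 11, with 3 at an unadjusted p below 0.05, and DESeq2 called 0.

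Of 7 further genes whose proteins bind opioids or handle their receptors, 1 was higher and 4 lower in SNI. Ackr3, an atypical chemokine receptor that scavenges opioid peptides, rose by 0.81, while Opcml, a cell adhesion protein with opioid binding, fell by 0.45. With G15, 3 were lower, among them Opcml by 0.66 and Rtp4, a chaperone for mu and delta receptors, by 0.53 on the log2 scale. Rtp4 was at 11.1 FPKM in sham, 9.63 FPKM in SNI and 6.47 FPKM in SNI + G15.

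Of 10 regulators of transcription reported for opioid genes, 4 were higher and 1 lower after injury. Kcnip3 encodes DREAM, a repressor of Pdyn, and it fell from 99.0 to 60.5 FPKM (log2 fold change -0.74, SE 0.042, edgeR adjusted p = 2.53e-07). Its part in the Pdyn value was not tested. Ikzf1, a regulator of lymphoid cells, rose by 1.13 and Creb1, which binds cyclic AMP response elements, by 0.48. With G15 Kcnip3 was at 56.0 FPKM.

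Opioid receptors share their G proteins with other Gi/o-coupled receptors, and of 17 of these tested, 5 were higher and 7 lower in SNI. Npy2r, a receptor for neuropeptide Y, rose by 1.14 and the dopamine receptor gene Drd2 by 0.43, while the adrenoceptor gene Adra2c fell by 0.86 and the glutamate receptor gene Grm4 by 0.81 on the log2 scale. With G15, 4 were lower, among them the cannabinoid receptor Cnr1 by 0.53 and the serotonin receptor Htr1d by 0.41. Both directions were thus found among these 17 receptors after injury. Among the opioid genes, the 1 called higher was the precursor gene Pdyn. The log2 fold changes of the opioid receptor genes Oprm1, Oprd1, Oprk1 and Oprl1 were -0.23, -0.48, -0.55 and -0.14. Of these, Oprm1 and Oprd1 did not pass the test.

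**Figure D5:**
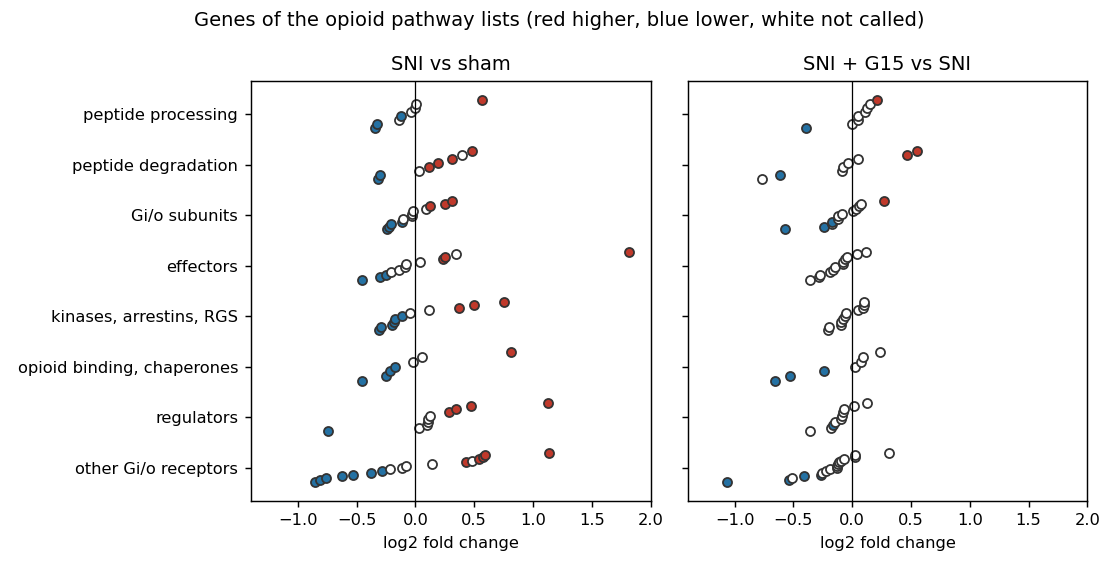
Log2 fold change (x axis) of every tested gene of the 8 lists (rows) in SNI against sham (left) and SNI + G15 against SNI (right), red where higher, blue where lower and white where the edgeR adjusted p was 0.05 or above. Calls of both directions filled the left panel, with 24 higher and 30 lower of 85, and the right panel held 4 higher and 13 lower.

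Over the 9 libraries, the genes whose log2 CPM was most like that of each opioid gene among 13135 named genes were looked up as a description, and all of them share the same libraries and group steps. Penk was most like Anxa6 (Pearson r = 0.983), Eva1c (0.981) and Igfbp6 (0.981). Igfbp6, a binding protein of insulin-like growth factors, was at 145 FPKM in sham, 78.2 FPKM in SNI and 105 FPKM in SNI + G15. Pdyn was most like Slc39a8 (0.996), Cyp27b1 (0.995) and Serpinb2 (0.994), and the last of these went from 0.03 to 1.70 to 2.08 FPKM. Oprk1 was most like the synaptic gene Snap25 (0.993), followed by Hp1bp3 (0.991) and Nwd2 (0.988). Oprl1 was closest to Tubg2 (0.984), Nrsn1 (0.980) and Ssbp2 (0.976), Oprm1 to Ift140 (0.977), Nbas (0.975) and Snrnp200 (0.971), and Oprd1 to Cplane1 (0.940), Dpp9 (0.936) and Tbcd (0.932).

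The transcript table held 27 transcripts of the 6 genes, of which 23 had at least 10 estimated counts over the 9 libraries and were tested. Penk had 2 transcripts, and XM_006237835.1 held at least 97.6% of its count in every library. That transcript fell in SNI against sham with a log2 fold change of -1.34 (SE 0.17, edgeR adjusted p = 0.0135 over 41245 transcripts), and it was the 1 transcript of the 6 genes to be called there, where 5.33% of all transcripts tested were called. In SNI + G15 against SNI and against sham, edgeR called 0 of the 23, with 1 and 4 at an unadjusted p below 0.05, and 0.225% and 5.19% of all transcripts were called. Oprl1 had 13 transcripts, 12 of them at 0 in at least 1 library. The counts of Pdyn passed between its 2 transcripts from library to library, with NM_019374.3 at 10, 0 and 0 in sham, so no change in transcript use can be read from these estimates.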

How the data were processed

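Total RNA of DRG from 3 rats per group was sequenced as paired reads, per the methods, while the supplement lists more rats than libraries, so whether a library is 1 rat or a pool is not settled. The authors deposited estimated counts and FPKM for each gene and each transcript, the gene FPKM being the sum over its transcripts. The aligner and annotation are not given in the sources used here. The submitters' processing notes name the mouse builds GRCm38 and mm10, although 18599 of 20194 gene identifiers matched rat RefSeq genes. The labels' extraction text describes macrophages, whereas their tissue field and the methods name DRG. Columns headed Control were taken as sham.

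Estimated counts were rounded. Genes with at least 1 FPKM in at least 1 library (14305) were tested in edgeR 4.0.16 (R 4.3.3) by the quasi-likelihood test with TMM scaling, fitted to the 6 libraries of each comparison and adjusted by Benjamini-Hochberg. SE is the log2 fold change over the root of the F statistic. Oprd1 was taken from the fit of 20107 genes. DESeq2 1.42.0, limma 3.58.1 on log2 FPKM, other scalings and filters, 1 fit of all 9 libraries, a replicate block and leaving out each library were the alternatives. The tests were tried on simulated counts first. The genes named from the pathway lists were the top 2 calls by adjusted p among higher genes and among lower genes of each list and comparison, with Sstr2 added for its lost call (some are not reported here), and like genes were the 3 with the highest Pearson correlation. The opioid genes and lists were chosen with earlier results of these data known. The labels do not tie libraries to single rats, so p-values measure only the spread between these libraries. Depth was 18484557 to 18756736 counts per library, and the number of counts limits the precision for genes such as Pdyn and Oprd1.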

Additional observations from a re-analysis of the deposited data

How the results depend on the processing

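The direction and call of Penk, Pdyn and Oprk1 in SNI against sham held in all 15 alternatives run, with log2 fold changes of -1.45 to -1.11, 0.80 to 2.74 and -0.62 to -0.34, the ends nearest 0 coming from limma on log2(FPKM + 1), which by construction shrinks low genes. Oprl1 in SNI against sham was lost with DESeq2 (adjusted p = 0.153), with library totals (0.0998), with all genes (0.0514), with the replicate block (0.0636) and without sham replicate 2 or 3 or any of the SNI libraries (0.0930 to 0.132), and the cause was not tested. Oprm1 in SNI + G15 against sham was also lost in limma on log2(FPKM + 0.1) (adjusted p = 0.0536). Oprd1 in SNI + G15 against SNI turned to 0.03 without the second SNI library and 0.14 without the third SNI + G15 library, with a range of -0.46 to 0.14 over the alternatives. The number of opioid genes called in SNI + G15 against SNI ranged from 0 to 2 and in SNI + G15 against sham from 3 to 5 when 1 library was left out. The number of all genes called in SNI + G15 against SNI was 1292 with the replicate block and ranged from 893 to 2333 when 1 library was left out, against 2179 in the full fit, and was 1098, 925 and 893 without SNI replicates 1, 2 and 3. Fewer libraries per group is part of these settings by construction. No pairing by replicate number was seen, in that 0 of 9 correlations of the deviations of same-numbered libraries were above 0.1 (-0.12 to 0.092). With 3 libraries per group this check cannot settle whether same-numbered libraries shared a step. The block changed no other call of an opioid gene. Oprd1, with 6 to 24 counts per library, and Pdyn in sham, with 5 to 10, are limited by depth.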
